A study of Mus musculus with 12 samples.

Results

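The 8 genes Cpt1a, Ehhadh, Acaa1b, Hadha, Acsl1, Pdk4, Fgf21 and Angptl4 act in hepatic fatty acid oxidation and in the response of the liver to fasting. They were chosen by name from the 32285 genes in the count matrices of a single-nucleus RNA sequencing study of mouse liver. For each gene, the spliced, unspliced and ambiguous unique molecular identifiers (UMIs, which count captured RNA molecules) were summed over the hepatocyte nuclei of each sample and expressed as CPM (counts per 1000000 UMIs of the sample), scaled by the trimmed mean of M values (TMM). The study asked how isolation and culture alter mouse hepatocytes. It compared 3 sample types taken from the same 8 mice, which gave 24 samples: full liver (Liver, L), collagenase-digested cells taken directly after isolation (Cell Suspension, CS) and primary hepatocytes cultured for 24 hours on collagen (Primary Hepatocytes, PH). All mice were wild type, of a strain labelled C57BL6J but named C57BL/6NTac in the study's methods, by which they were young adult males with free access to chow. A period without food before isolation, and the time of day, are not given in the sources used here. By the study's methods, the Liver sample was cut from the median lobe after a calcium-free buffer had cleared the blood and before collagenase. All suspension and cultured cells had passed through liver perfusion with collagenase. The cultures alone had been kept in medium with dexamethasone and insulin and were detached with trypsin before freezing. Culture medium, time since isolation, attachment and detachment with trypsin therefore cannot be told apart.

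Long-chain fatty acids are first activated to acyl-CoA by acyl-CoA synthetases such as Acsl1. Entry into mitochondria is set by Cpt1a, and Hadha carries part of the mitochondrial trifunctional protein, whereas Ehhadh and Acaa1b belong to the peroxisomal pathway. In fasted liver the nuclear receptor PPARα raises the transcription of these enzymes, of the pyruvate dehydrogenase kinase Pdk4, which restrains glucose oxidation, and of the secreted factors Fgf21 and Angptl4.

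The hepatocyte set held 44788 of the 53467 annotated nuclei, with 15166 in Liver, 13339 in Cell Suspension and 16283 in culture. UMIs per sample ranged from 6872031 to 29023569 in Liver, from 2104087 to 17452582 in Cell Suspension and from 9852007 to 21226254 in Primary Hepatocytes. The nuclei were loaded in 6 pools, of which only 2 held both Liver and Primary Hepatocyte samples, and 337 barcode sequences occurred in more than 1 pool. The summed level of 10 hepatocyte markers was 11405 to 18419 CPM in L, 14689 to 18989.8 in CS and 5187 to 8657 in PH. Over whole cultured clusters, these markers were at 3689.9 CPM in the one read as endothelial and 3169 CPM in the stellate one. The lowest cultured cluster read as hepatocytes, cluster 14, held 4565 CPM. How much of the cultured level was the nuclei's own RNA was not tested. In the hepatocyte nuclei of L, CS and PH the summed endothelial markers were 42.3 to 70.5, 46.3 to 101 and 134 to 192 CPM. The adipocyte markers were 1.69 to 4.07, 1.40 to 5.58 and 12.3 to 21.1 CPM. The stellate markers were 27.7 to 57.1, 22.8 to 60.1 and 69.8 to 636 CPM and the leukocyte markers 13.9 to 34.2, 12.1 to 41.8 and 36.6 to 58.0 CPM, so that these 4 lists were higher in every cultured sample than in any Liver sample. No gene of these marker lists was at 0, and the part of other cell types in the differences below was not tested.

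Promoter windows of 7 of the 8 genes were found in RefSeq (GRCm38.p6, 250 bases before to 50 after the start of transcription). These are shown because the members parted ways across the sample types: the Cpt1a and Acaa1b RNAs were low in culture, Pdk4 was the member higher in culture than in liver, and Fgf21 was nearly undetected in culture. Capitals mark matches on either strand to the nuclear receptor hexamer AGGTCA, the amino acid response element TGATGNAAT, the TATA box TATAAA and the E-box CACGTG.
Cpt1a (chr19:3323051-3323350, + strand): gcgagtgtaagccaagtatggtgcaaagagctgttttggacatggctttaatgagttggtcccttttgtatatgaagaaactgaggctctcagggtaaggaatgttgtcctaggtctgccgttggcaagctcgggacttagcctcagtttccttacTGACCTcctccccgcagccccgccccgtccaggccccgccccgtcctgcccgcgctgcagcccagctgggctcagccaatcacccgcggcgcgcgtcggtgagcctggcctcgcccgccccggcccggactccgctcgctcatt
Acaa1b (chr9:119157044-119157343, - strand): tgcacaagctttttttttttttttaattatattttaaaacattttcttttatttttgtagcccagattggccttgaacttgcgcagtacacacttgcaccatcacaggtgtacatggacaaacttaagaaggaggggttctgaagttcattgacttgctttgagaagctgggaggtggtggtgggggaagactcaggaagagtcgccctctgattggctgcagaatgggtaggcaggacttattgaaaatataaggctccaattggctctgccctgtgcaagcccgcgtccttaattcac
Pdk4 (chr6:5496229-5496528, - strand): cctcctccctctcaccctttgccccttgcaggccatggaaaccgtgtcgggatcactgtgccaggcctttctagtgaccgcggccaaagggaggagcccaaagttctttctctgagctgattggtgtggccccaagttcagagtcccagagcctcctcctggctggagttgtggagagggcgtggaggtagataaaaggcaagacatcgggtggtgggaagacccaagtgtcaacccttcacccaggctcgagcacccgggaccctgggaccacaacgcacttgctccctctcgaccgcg
Fgf21 (chr7:45615441-45615740, - strand): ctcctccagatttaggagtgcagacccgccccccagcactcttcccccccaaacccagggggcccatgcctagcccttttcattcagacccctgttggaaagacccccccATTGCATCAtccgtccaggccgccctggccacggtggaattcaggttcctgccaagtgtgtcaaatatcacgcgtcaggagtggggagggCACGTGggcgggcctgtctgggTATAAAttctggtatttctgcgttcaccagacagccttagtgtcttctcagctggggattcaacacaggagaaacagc

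The Cpt1a window held 1 hexamer match, read on the reverse strand, starting 94 bases before the start of transcription. The Fgf21 window held an amino acid response element, an E-box and a TATA box, starting 140, 50 and 28 bases before it. No other member window matched any of these motifs, and no window held the direct repeat AGGTCANAGGTCA, which contains the hexamer and is the arrangement known for PPARα, or the glucocorticoid element, AGAACA and TGTTCT with 3 bases between. Among all 32851 windows of this length, the hexamer occurred in 16.3%, the amino acid response element in 0.965%, the TATA box in 13.6%, the E-box in 7.15%, the direct repeat in 0.0396% and the glucocorticoid element in 0.00913%. These matches describe letters within 300 bases and say nothing of which factor was bound.

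Across the 3 sample types, the 5 oxidation and activation genes were far lower after culture than in Liver or Cell Suspension, whose ranges overlapped for each of the 5. Barcodes with too few UMIs to be kept as nuclei held Cpt1a, Acsl1, Acaa1b and Hadha above their cultured levels, as given below. The fitted sizes of these decreases, and their order, may therefore be limited by free RNA, whose part was not tested. In Primary Hepatocytes against Liver, 6 of the 8 genes were lower and 1, Pdk4, was higher in edgeR's quasi-likelihood test at an adjusted p under 0.05, where 26.3% of all 26778 genes tested were lower and 27.4% higher. In Primary Hepatocytes against Cell Suspension, 8 of the 8 were lower and 0 higher, where 23.5% of all genes were lower and 26.9% higher. In Cell Suspension against Liver, 3 of the 8, Acaa1b, Pdk4 and Angptl4, were higher and 0 lower, where 8.15% of all genes were higher and 14.2% lower. All 8 genes passed the filter of 10 UMIs over the 24 samples. Over all genes tested, the log2 fold change had a median of 0.10 for PH against L, 0.02 for PH against CS and 0.02 for CS against L, and without TMM scaling it shifted to 0.66, 0.71 and -0.11.

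**Figure D1:**
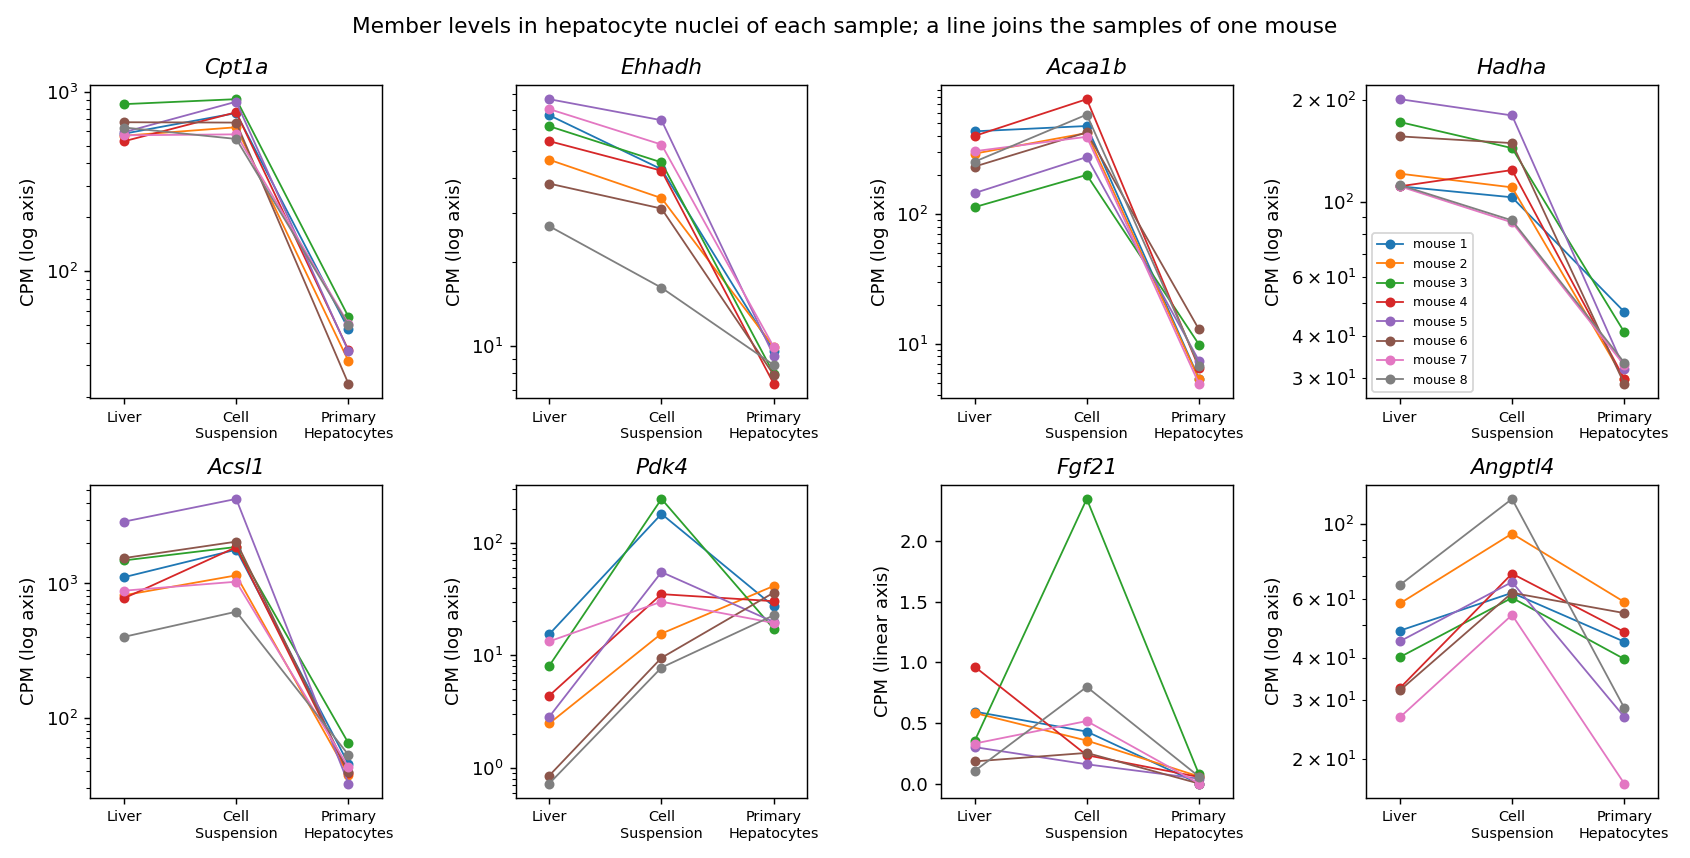
TMM-scaled CPM of each of the 8 genes in hepatocyte nuclei (log axes, linear for Fgf21), with 1 point per sample and a line joining the 3 samples of a mouse. The cultured samples lie below all others for Cpt1a, Ehhadh, Acaa1b, Hadha and Acsl1, whereas Pdk4 is lowest in Liver and the Angptl4 ranges of Liver and Primary Hepatocytes overlap.

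Acsl1, on chr8:46471037-46536051 (GRCm38, plus strand), activates long-chain fatty acids. Its level in Liver was 399.9 CPM at the lowest, 999 at the median and 2892 at the highest. In Cell Suspension these values were 616, 1827 and 4274 CPM, and in Primary Hepatocytes 32.2, 40.9 and 64.4 CPM. The cultured samples did not overlap either other group, and within Liver and within Cell Suspension mouse 8 was lowest and mouse 5 highest. Acsl1 was 28.2-fold lower in PH than in L (log2 fold change -4.82, SE 0.37, adjusted p = 1.1e-12) and 41.7-fold lower than in CS (log2 -5.38, SE 0.38, adjusted p = 2.2e-13). It was higher in CS than in L in 8 of 8 mice, but the log2 difference of 0.56 (95% CI -0.08 to 1.2, adjusted p = 0.22) did not pass the test. With the mouse as a replicate block it was 0.58 (SE 0.23, adjusted p = 0.078), which did not pass either.

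Cpt1a, on chr19:3322334-3385733 (plus strand), makes the acylcarnitine that crosses into mitochondria. It stood at 529, 589 and 851 CPM (lowest, median and highest) in Liver, at 545, 715 and 907 CPM in Cell Suspension and at 23.7, 42.0 and 55.9 CPM in Primary Hepatocytes. Tissue and suspension overlapped almost entirely and every cultured sample lay far beneath them. Cpt1a was 15.0-fold lower in PH than in L (log2 -3.91, SE 0.17, adjusted p = 4.3e-18) and 17.3-fold lower than in CS (log2 -4.11, SE 0.17, adjusted p = 2.3e-18). Between CS and L the log2 difference was 0.20 (95% CI -0.12 to 0.51, adjusted p = 0.40).

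Hadha, on chr5:30118304-30155162 (minus strand), encodes the alpha subunit of the trifunctional protein, which carries out later steps of the mitochondrial cycle. In Liver its CPM was 111, 117 and 201, with 86.8, 117 and 179.9 in Cell Suspension and 28.9, 32.4 and 47.2 in culture. Mouse 5 was highest in both tissue and suspension. Hadha had the smallest fitted decrease of the 5 enzymes, by 1.99 on the log2 scale in PH against L (SE 0.16, adjusted p = 5.5e-12) and by 1.84 against CS (SE 0.16, adjusted p = 3.8e-11), which is 3.98-fold and 3.58-fold lower. The CS against L difference was -0.15 (95% CI -0.47 to 0.17, adjusted p = 0.55).

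The peroxisomal pair showed the largest and an intermediate fitted decrease. Ehhadh, on chr16:21761287-21787807 (minus strand), encodes the bifunctional enzyme of the peroxisomal cycle. In Liver its CPM was 26.9, 57.8 and 76.6, with 16.2, 42.7 and 64.4 in Cell Suspension and 7.34, 8.91 and 9.95 in culture. Ehhadh was 6.26-fold lower in PH than in L (log2 -2.65, SE 0.21, adjusted p = 2.3e-12) and 4.64-fold lower than in CS (log2 -2.22, SE 0.21, adjusted p = 1.4e-10). It was lower in CS than in L in 8 of 8 mice, with a log2 difference of -0.43 (95% CI -0.83 to -0.03) that missed the threshold (adjusted p = 0.12) and passed it with the mouse as a replicate block (-0.43, adjusted p = 0.023).

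Acaa1b, on chr9:119148023-119157093 (minus strand), encodes a peroxisomal thiolase, the last enzyme of that cycle. In Liver its CPM was 113, 272 and 434, with 200.3, 424 and 768 in Cell Suspension and 4.92, 6.66 and 12.9 in culture. Mouse 3 had the lowest level in tissue and in suspension. Acaa1b showed the largest fitted decrease of the 8 genes, 36.8-fold in PH against L (log2 -5.20, SE 0.31, adjusted p = 2.8e-15) and 60.1-fold against CS (log2 -5.91, SE 0.31, adjusted p = 4.7e-16). It rose 1.63-fold from L to CS, in 8 of 8 mice (log2 0.71, SE 0.25, adjusted p = 0.043). That call was lost on leaving out mouse 2, 4, 5, 6, 7 or 8, with adjusted p from 0.059 to 0.13, with the pool as a covariate (0.76, adjusted p = 0.068), without TMM scaling (0.56, adjusted p = 0.13) and on spliced UMIs alone (0.39, adjusted p = 0.30).

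Acaa1b lies close to its paralog Acaa1a, on chr9:119339676-119350299 (plus strand), and 45.7% of the 31-base words of the Acaa1b transcript also occur in Acaa1a. The split of UMIs between them is therefore uncertain. In the Liver of mouse 1, Acaa1a had 669 spliced and 0 unspliced UMIs, and Acaa1b had 3978 and 3046. No sample held more than 1 unspliced Acaa1a UMI. The unspliced UMIs and the spliced share of Acaa1b are thus uncertain too. Mean Acaa1a levels were 46.1, 66.9 and 6.26 CPM in L, CS and PH, and its log2 fold changes were -2.89 for PH against L (adjusted p = 3.2e-17) and 0.54 for CS against L (adjusted p = 0.0021). Both paralogs were thus called in the same direction in these comparisons.

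Pdk4, on chr6:5483351-5496309 (minus strand), inhibits the pyruvate dehydrogenase complex. Its values in Liver and Cell Suspension spread more between mice than those of the 5 enzymes, with a coefficient of variation of 94.4% and 124% against at most 61.9%, whereas in culture Pdk4 (32.3%) spread less than Acaa1b (37.0%). In Liver the lowest, median and highest levels were 0.724, 3.61 and 15.4 CPM. In Cell Suspension they were 7.78, 32.5 and 246 CPM, and in Primary Hepatocytes 17.2, 25.0 and 41.4 CPM. Every cultured sample lay above every Liver sample, while the suspension range covered the whole cultured range, with mice 1 and 3 at 181 and 246 CPM and the other suspension samples at or below 55.0 CPM. Pdk4 was 4.34-fold higher in PH than in L (log2 2.12, SE 0.59, adjusted p = 0.0030), in 8 of 8 mice. With the pool as a covariate the call ended (1.19, adjusted p = 0.31), while in the 2 pools that held both types, with 3 cultured and 2 liver samples, the value was 2.77 (adjusted p = 8.1e-05).

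Pdk4 was 11.8-fold higher in CS than in L (log2 3.57, SE 0.62, adjusted p = 6.3e-05), again in 8 of 8 mice, and by 2.16 (adjusted p = 0.013) in the pools that held both. From CS to PH it was lower by the model (log2 -1.45, SE 0.56, adjusted p = 0.033), yet in only 5 of 8 mice. This call was lost with the mouse as a replicate block (-0.47, adjusted p = 0.48), with the pool as a covariate (-1.33, adjusted p = 0.063), without TMM scaling (-0.66, adjusted p = 0.32), over all nuclei (-1.24, adjusted p = 0.056) and in DESeq2 (-1.42, adjusted p = 0.056). It was also lost without mouse 1 (-1.10, adjusted p = 0.12), without mouse 3 (-0.79, adjusted p = 0.26) and without mouse 5 (-1.45, adjusted p = 0.056). Within Cell Suspension, 532 hepatocyte nuclei carried the authors' annotation of tissue Hepatocytes and held Pdk4 at 431 CPM before TMM scaling, against 44.8 CPM in the 12057 annotated as Isolated Hepatocytes. The higher value is pooled over mice and rests mostly on mice 1 and 3, in which 83 and 84 such nuclei gave 511 of 1694 and 713 of 1567 Pdk4 UMIs. In mouse 6, with the most such nuclei (167), they gave 6 of 75 UMIs, in mouse 2 they gave 6 of 88 and in mouse 8 they gave 2 of 39. Their part in the group values was not tested.

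Fgf21, on chr7:45613886-45615490 (minus strand), encodes a fasting hormone and was the gene with the fewest UMIs. It had 51 UMIs over the Liver samples, 32 in Cell Suspension and 5 in Primary Hepatocytes. Levels were 0.103, 0.340 and 0.966 CPM in Liver and 0.159, 0.392 and 2.35 CPM in Cell Suspension. In culture, 5 samples had 1 UMI each and 3 had 0, which at 3 counts allows up to 0.141, 0.213 and 0.230 CPM in mice 1, 6 and 7 before TMM scaling. Mouse 3 held 15 of the 32 suspension UMIs. The fitted log2 fold change was -3.35 in PH against L (95% CI -4.62 to -2.08, adjusted p = 2.8e-05) and -3.88 against CS (95% CI -5.23 to -2.52, adjusted p = 9.3e-06), and these sizes depend on the model's prior count. Without mouse 3 the latter was -3.28 (adjusted p = 1.2e-04). CS and L did not differ beyond their spread (log2 0.53, 95% CI -0.45 to 1.5, adjusted p = 0.49).

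Angptl4, on chr17:33773750-33781830 (minus strand), encodes a secreted inhibitor of lipoprotein lipase and was the member without a call between culture and tissue. In Liver its CPM was 26.6, 42.5 and 65.9, with 53.7, 64.9 and 119 in Cell Suspension and 16.9, 42.2 and 58.7 in culture. Mouse 7 was lowest in each sample type. The PH against L log2 difference was -0.13 (95% CI -0.57 to 0.31, adjusted p = 0.65), and its sign turned without TMM scaling (0.44, adjusted p = 0.097). Angptl4 was higher in CS than in L in 8 of 8 mice (log2 0.77, SE 0.22, adjusted p = 0.0090) and lower in PH than in CS in 8 of 8 (log2 -0.90, SE 0.22, adjusted p = 7.3e-04), the latter not passing without TMM scaling (-0.20, adjusted p = 0.48). The first call was lost with the pool as a covariate (0.68, adjusted p = 0.093).

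**Figure D2:**
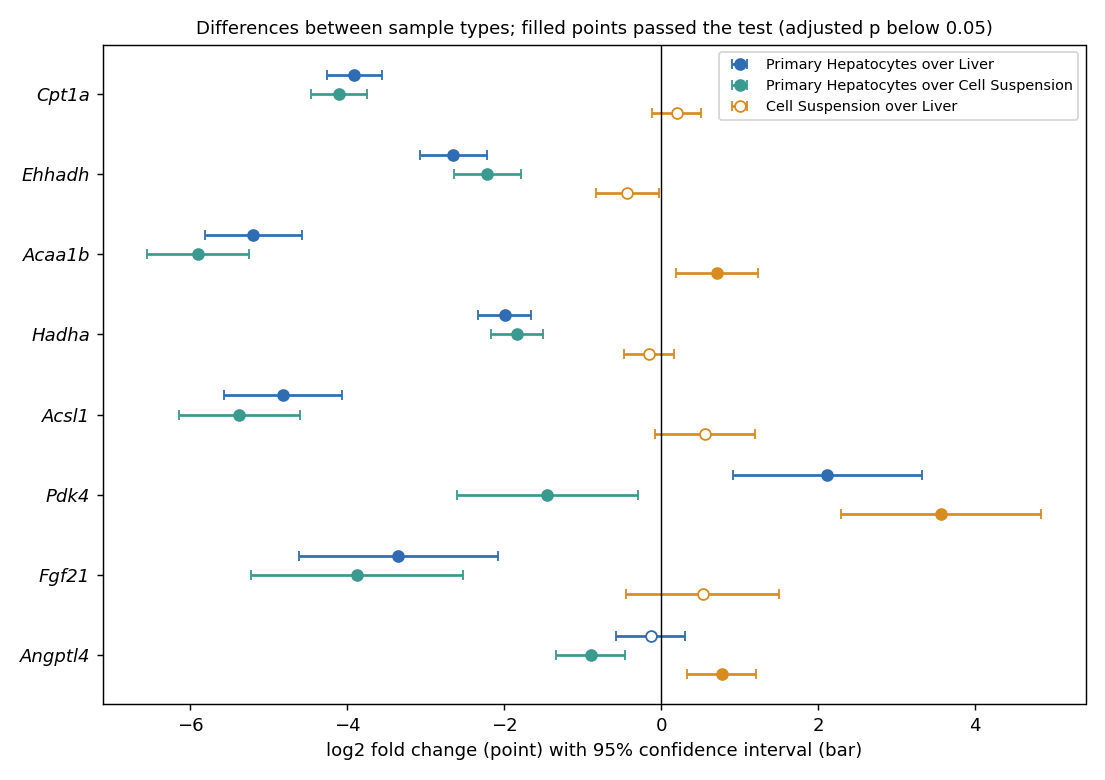
Log2 fold change of each of the 8 genes in the 3 comparisons, with 95% confidence intervals from the edgeR fit over 24 samples and filled points for an adjusted p under 0.05. The enzymes lie between -1.84 and -5.91 in both comparisons with culture, while Pdk4 lies at 2.12 against Liver and 3.57 in Cell Suspension against Liver.

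Nuclei of the pools that held both types gave the same direction for each member called in the comparisons with culture. The low-UMI cluster, set aside in a repeat chosen after the data were seen, left every one of these calls in place: Acaa1b was at -5.22, Acsl1 at -4.80 and Pdk4 at 2.17 in PH against L. A small minority of cultured hepatocyte nuclei carried more of some members than of all genes together. The 73 of 16283 nuclei (0.448%) that the authors annotated as tissue or isolated hepatocytes held 0.560% of all UMIs but 15.7% of Acaa1b, 13.8% of Acsl1, 5.84% of Cpt1a and 3.96% of Pdk4 UMIs. Their shares of Hadha (1.14%), Ehhadh (0.730%) and Angptl4 (0.660%) were closer to that of all UMIs, and 1 of the 5 Fgf21 UMIs was theirs. With such nuclei removed from all 3 sample types, in Liver and Cell Suspension those annotated as cultured, the PH against L log2 fold changes were -5.46 for Acaa1b, -5.04 for Acsl1, -4.00 for Cpt1a and 2.06 for Pdk4.

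The share of nuclei with at least 1 UMI was compared after thinning each nucleus to 1000 UMIs, with two-sided exact permutation tests of 8 against 8 samples adjusted over 24 tests. These tests, and those of the spliced shares below, did not use the pairing by mouse. Nuclei with Cpt1a made up 40.4% ± 4.03 (SD) in Liver, 40.2% ± 3.71 in Cell Suspension and 4.90% ± 1.36 in culture (PH against L adjusted p = 3.4e-04, exact permutation). For Acsl1 these shares were 55.6% ± 15.7, 61.3% ± 15.9 and 5.44% ± 1.77, and for Acaa1b 22.4% ± 8.63, 30.0% ± 9.78 and 1.13% ± 0.346. At 1000 UMIs per nucleus such a share largely follows the summed level. It therefore cannot tell fewer nuclei with the RNA from less RNA in each nucleus. Hadha averaged 11.4% (9.29 to 14.3 over samples), 9.56% (7.54 to 13.5) and 4.37% (3.63 to 5.38), and Ehhadh 4.25% (2.36 to 5.34), 2.78% (1.36 to 3.81) and 1.08% (0.949 to 1.31). Ehhadh was also detected in fewer nuclei in CS than in L (adjusted p = 0.011, exact permutation), whereas its summed level missed the threshold. Each of the 5 decreases from L to PH had the same adjusted p, which is close to the smallest this test can give. Without thinning the Cpt1a shares were 84.2%, 72.7% and 22.3%, and CS was then below L for Cpt1a (adjusted p = 0.039), Ehhadh and Hadha (each adjusted p = 0.0034, exact permutation). Unthinned shares also depend on depth, with median UMIs per hepatocyte nucleus of 7572.5 in L, 3459.0 in CS and 6080.0 in PH. These unthinned calls are therefore not read as fewer nuclei with the RNA. Thinning left out 587, 932 and 293 nuclei under 1000 UMIs in L, CS and PH.

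Pdk4 was detected in few of the thinned nuclei in each sample type. In Liver its share was 0.531% ± 0.408, with 2.87% ± 2.46 in Cell Suspension and 3.18% ± 1.01 in culture, so that PH exceeded L (adjusted p = 3.4e-04, exact permutation) and CS exceeded L (adjusted p = 0.0037, exact permutation). Angptl4 was in 4.29% ± 1.59, 6.97% ± 1.95 and 5.32% ± 1.91 of nuclei, with a higher share in CS than in L (adjusted p = 0.011, exact permutation). Fgf21 was in 0.0338%, 0.0369% and 0.00513%. The corresponding unthinned shares of Pdk4 were 3.27%, 6.96% and 13.1%, where CS against L did not pass (adjusted p = 0.15, exact permutation). Unthinned, PH exceeded CS (adjusted p = 0.040, exact permutation), but the thinned difference was 0.307 percentage points (adjusted p = 0.81, exact permutation). The unthinned shares of Angptl4 were 25.4%, 22.3% and 23.7%.

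The shares in endothelial nuclei of the same cultures are given beside these. In them, thinned likewise, Cpt1a was in 5.6%, Acaa1b in 1.31%, Hadha in 4.74%, Acsl1 in 8.0% and Pdk4 in 3.58% of nuclei, each at or above the share in cultured hepatocyte nuclei. The cultured shares of Cpt1a, Acaa1b and Acsl1 are therefore not read as expression above background here. For Cpt1a and Acsl1 the endothelial share is itself an uncertain measure of background. Endothelial nuclei of Liver carried them at 154 and 147 CPM before TMM scaling, and how much of that was their own RNA was not tested. For Hadha and Pdk4 the endothelial share is no measure of background, since endothelial nuclei of Liver carried Hadha at 74.3 CPM, against 122 in hepatocytes before TMM scaling, and Pdk4 above the hepatocyte level. Ehhadh, at 0.892% against 1.08%, and Angptl4, at 3.85% against 5.32%, had a higher share in the cultured hepatocytes, and Fgf21 had 0 UMIs in the cultured endothelial nuclei. Median UMIs were 1377.0 per endothelial and 6080.0 per hepatocyte nucleus in culture. In Liver the endothelial shares were well under the hepatocyte ones for Cpt1a (11.8%), Acaa1b (2.89%) and Acsl1 (11.2%), but above for Pdk4 (1.64%). Barcodes with under 100 UMIs, too few to have been kept as nuclei, held Cpt1a at 204 to 717 CPM, Acsl1 at 341 to 1032, Acaa1b at 153 to 397 and Hadha at 61.3 to 143 over the 6 pools, all above the cultured levels. Ehhadh at 8.19 to 36.6 CPM, Angptl4 at 32.6 to 65.4 and Pdk4 at 2.04 to 30.6 in these barcodes overlapped their cultured levels, and Fgf21 had 0 UMIs there. The part of this free RNA in the cultured values was not tested.

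Within Liver, the members other than Pdk4 and Fgf21 were higher in hepatocytes than in the other cell types that could be compared over 8 mice, with exceptions among leukocytes. Against endothelial nuclei, hepatocytes had more Cpt1a (563 against 154 CPM before TMM scaling), Acsl1 (1092 against 147 CPM), Acaa1b (250.4 against 35.1 CPM) and Angptl4 (39.6 against 5.75 CPM), each in 8 of 8 mice (adjusted p = 0.013, exact permutation, where the smallest raw p is 0.0078). Pdk4 had the opposite order, at 5.45 ± 5.26 CPM in hepatocytes and 16.7 ± 3.29 CPM in endothelial nuclei (SD, n = 8), with hepatocytes higher in 1 of 8 mice (adjusted p = 0.024, exact permutation). Pdk4 in hepatocytes and stellate nuclei (6.76 CPM) did not differ beyond the spread (adjusted p = 0.96, exact permutation). Ehhadh and Hadha did not pass the test against leukocytes (adjusted p = 0.093 and 0.12, exact permutation), and the biliary comparison, with 4 samples, could not go below an exact p of 0.12.

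Hepatocytes differ in metabolism along the lobule between the portal tract and the central vein, so the members were also followed by position. Nuclei of each sample with at least 5 UMIs of the pericentral and periportal marker lists were ranked by the pericentral share of those UMIs, and the upper and lower terciles were compared within each mouse by a two-sided exact permutation test with sign flips, adjusted over 24 tests. In Liver, 6 of the 8 genes differed: Pdk4 (log2(CPM + 1) difference 2.04 ± 1.29), Acaa1b (1.66 ± 0.43), Angptl4 (0.52 ± 0.30), Ehhadh (0.50 ± 0.31) and Acsl1 (0.49 ± 0.29) were pericentral in 8 of 8 mice (SD, n = 8, each adjusted p = 0.014, exact permutation). Cpt1a was slightly periportal (-0.18 ± 0.13, 7 of 8 mice, adjusted p = 0.027, exact permutation), a call lost without mouse 1, 2, 3, 4 or 7 (adjusted p from 0.050 to 0.054). Over all genes other than the zonal markers, in a comparison added after the data were seen, 10.7% were pericentral and 12.0% periportal in Liver at an unadjusted p under 0.05, beside 6 and 1 of the 8 members by that rule. The same shares were 7.74% and 9.22% in Cell Suspension, beside 6 and 0 members, and 12.3% and 6.26% in culture, beside 5 and 0. Adjusted over all these genes no member passed in any sample type, with 0.064 the lowest adjusted p in Liver, 0.098 in Cell Suspension and 0.095 in culture (exact permutation), each at the smallest raw p of the test. Acaa1b averaged 389.6 CPM in the pericentral tercile and 124 CPM in the periportal one. Hadha, at 126 and 115 CPM, missed the threshold (0.15, adjusted p = 0.062, exact permutation).

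In Cell Suspension the gradient of Pdk4 was steep, at 134 ± 149 CPM in the pericentral tercile and 4.92 ± 4.98 CPM in the periportal one, a log2 difference of 4.15 ± 0.82 in 8 of 8 mice (adjusted p = 0.014, exact permutation). Acaa1b (1.59), Angptl4 (1.02) and Acsl1 (0.70) were pericentral in 8 of 8 mice (adjusted p = 0.014, exact permutation), and Ehhadh (0.64) and Hadha (0.18) in 7 of 8 (adjusted p = 0.035, exact permutation). The last 2 calls were lost without mouse 1, 3, 4, 7 or 8, that of Ehhadh also without mouse 5 and that of Hadha without mouse 2 (adjusted p from 0.066 to 0.070). On the log2(CPM + 1) scale the Pdk4 difference exceeded that in L in 8 of 8 mice, by 2.11 ± 1.01, and the test of this, added after the data were seen, gave an adjusted p of 0.094 (exact permutation over 24 tests). The mean Liver levels were 11.4 CPM in the pericentral and 0.996 CPM in the periportal tercile, the latter no higher than the added 1, so this scale understates the Liver gradient and the 2.11 is not read as a measure of how far the gradients differed. None of the 24 differences in gradient between sample types passed the threshold, which the design nearly fixed, since 8 mice allow no raw p below 0.0078 and the 2 differences at that value had an adjusted p of 0.094. The Cpt1a difference in suspension was -0.05 (adjusted p = 0.20, exact permutation).

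In culture the zonal markers were themselves low, with the pericentral list at 213 to 307 CPM against 4091 to 5512 CPM in Liver. Cultured nuclei in the upper tercile had a pericentral share of at least 31.1%, averaged over samples, and those in the lower one at most 5.77%, whereas the Liver cut-offs were 73.5% and 24.2%. The terciles of culture and tissue thus span different shares. Pdk4 (57.8 against 24.1 CPM, log2 1.30), Acaa1b (18.3 against 5.00 CPM, log2 1.67) and Acsl1 (93.0 against 48.6 CPM, log2 0.91) were higher in the upper tercile in 8 of 8 mice (adjusted p = 0.014, exact permutation). Hadha was higher there too in 8 of 8 mice, by a smaller 0.27 (53.2 against 43.7 CPM, adjusted p = 0.014, exact permutation). The Acaa1b, Acsl1 and Hadha levels of both terciles lay below those in the barcodes with few UMIs. These 3 differences are therefore not read as a difference in expression by position. Clusters of cultured hepatocyte nuclei, described below, differed in Pdk4 and in both zonal marker lists. Cluster 14, with the most Pdk4, also held the most adipocyte markers. How the terciles were made up of these clusters was not tested. The Pdk4 difference is therefore not read as one of position either. Without the nuclei annotated as another sample type, an alternative chosen after the data were seen, Pdk4 stood at 1.13, Acaa1b at 1.06 and Hadha at 0.25 in 8 of 8 mice (adjusted p = 0.016, exact permutation), and Acsl1 at 0.23 in 7 of 8 (adjusted p = 0.037, exact permutation). Ehhadh, at 0.57 in both, passed with these nuclei (adjusted p = 0.044, exact permutation) and missed without them (adjusted p = 0.052, exact permutation) or on leaving out any single mouse but mouse 5 (adjusted p from 0.066 to 0.088), and Cpt1a went from 0.36 to 0.05 and did not pass in either.

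**Figure D3:**
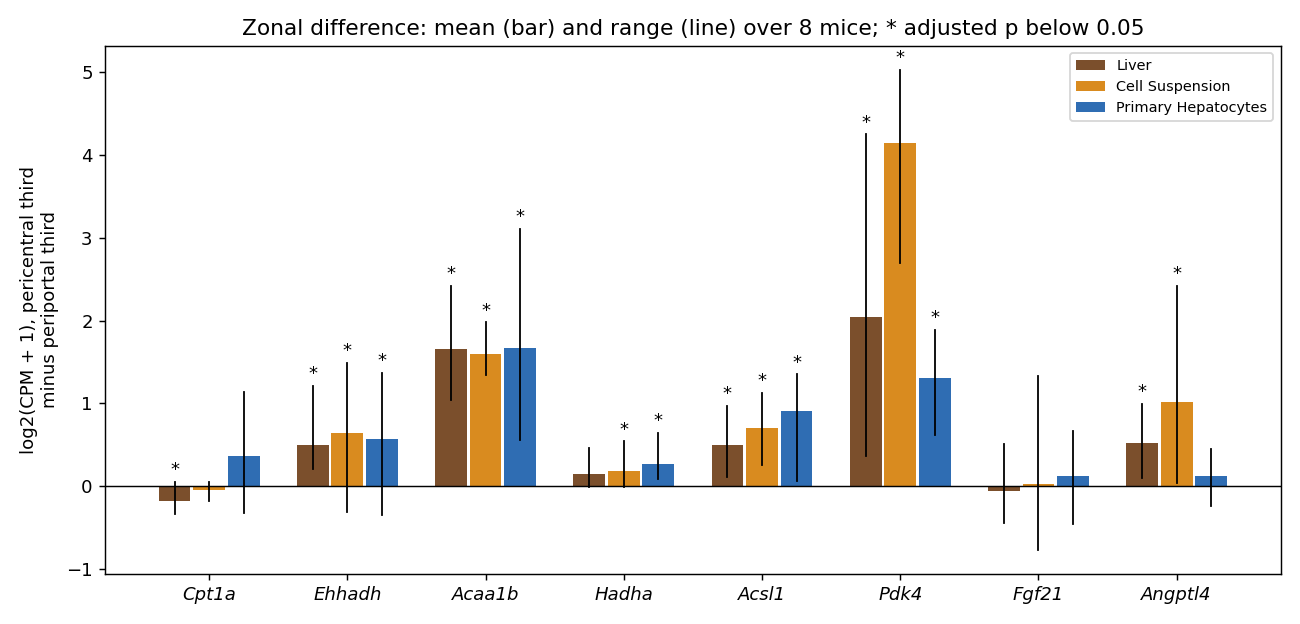
Difference in log2(CPM + 1) between the pericentral and periportal terciles of hepatocyte nuclei for each gene and sample type, as the mean (bar) and the range (line) over 8 mice, with a star at an adjusted p under 0.05. Pdk4 and Acaa1b lie above 0 in all 24 samples, and Cpt1a lies near 0 in Liver and Cell Suspension.

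Spliced and unspliced RNA of some members moved differently. The spliced share (spliced of spliced plus unspliced UMIs) of all genes together was 16.2 to 21.5% over Liver samples, 22.5 to 31.7% in Cell Suspension and 27.1 to 31.6% in Primary Hepatocytes. Angptl4 rose from 63.3% ± 3.57 in L to 80.6% ± 2.87 in CS and stood at 76.8% ± 2.48 in PH (SD, n = 8, both against L with adjusted p = 5.4e-04, exact permutation), and no suspension sample overlapped a liver sample. Its rise in suspension was 0.74 in spliced UMIs (adjusted p = 0.013) and 0.01 in unspliced UMIs (adjusted p = 0.99) in the edgeR fits. In PH against L, its unspliced UMIs fell by 0.68 on the log2 scale (adjusted p = 0.013, edgeR), which the summed UMIs did not show.

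Hadha rose from 19.5% ± 3.31 spliced in L to 33.1% ± 6.89 in CS and Ehhadh from 5.73% ± 1.26 to 13.5% ± 3.06 (n = 8, adjusted p = 5.4e-04 each, exact permutation). For both genes the sign of the CS against L difference followed the RNA counted. Spliced UMIs gave 0.38 for Ehhadh and 0.34 for Hadha, and unspliced UMIs gave -0.42 and -0.20, none of which passed the edgeR test. Acaa1b, whose share is uncertain beside Acaa1a, was 58.5% spliced in L and 60.4% in CS, and Acsl1 6.15 to 18.6% over L and 8.94 to 17.3% over CS samples, with no difference past the threshold (adjusted p = 0.56 and 0.66, exact permutation). Pdk4 rose from 20.7% ± 5.27 in CS to 33.7% ± 6.23 in PH (adjusted p = 0.0033, exact permutation), and the CS to PH decrease of Pdk4 was -1.78 in unspliced (adjusted p = 0.011) and -0.43 in spliced UMIs (adjusted p = 0.44, edgeR).

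**Figure D4:**
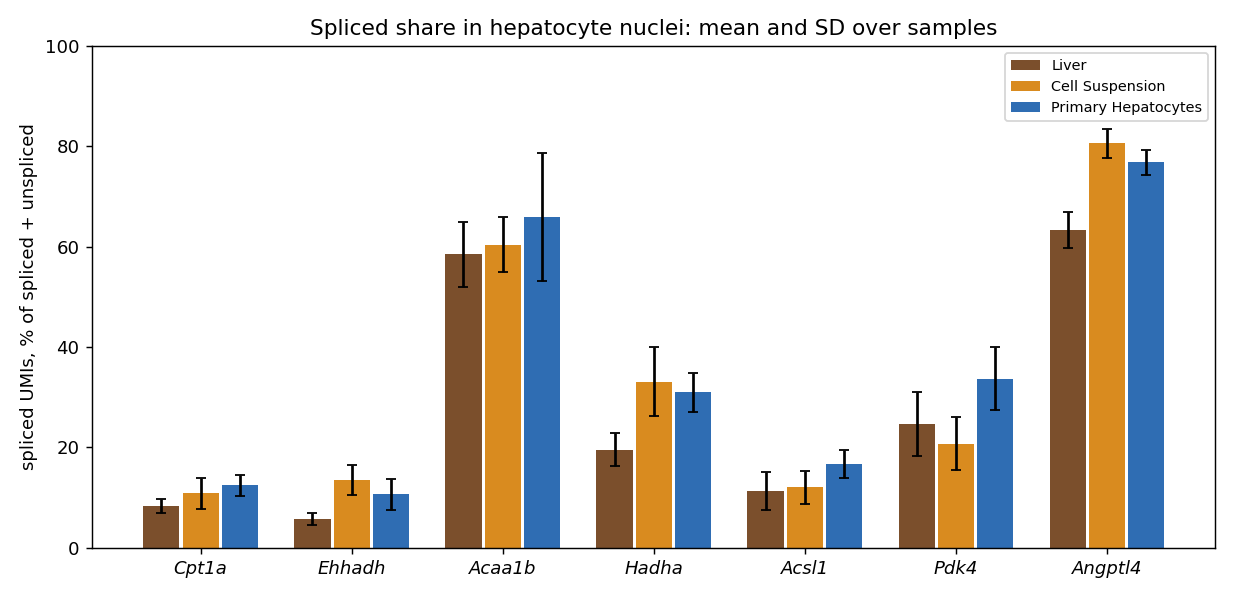
Spliced share (percent of spliced plus unspliced UMIs) of 7 members in each sample type, as the mean and SD over samples with at least 20 such UMIs. Angptl4, Hadha and Ehhadh are higher in Cell Suspension than in Liver, at 80.6%, 33.1% and 13.5% against 63.3%, 19.5% and 5.73%.

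Liver and suspension levels of the same mouse were correlated for 5 of the 8 genes by Pearson's r and for 1 of the 8 by Spearman's rho, adjusted over 24 relations. Such relations were common: at an unadjusted p under 0.05, 15.5% of all genes with varying levels had a positive r and 0.759% a negative one, beside 6 and 0 of the 8 members. Adjusted over all these genes, Ehhadh alone passed (adjusted p = 0.031, exact permutation). Over 8 mice, Ehhadh in L and CS had a Pearson r of 0.97 (exact permutation p = 7.4e-05, adjusted p = 0.0018 over 24 relations) and a Spearman rho of 0.98 (p = 4.0e-04, adjusted p = 0.0095), and r was 0.91 without mice 6 and 8. For Acsl1 r was 0.93 (exact permutation p = 0.0035, adjusted p = 0.028) and rho 0.83 (adjusted p = 0.18), and r dropped to 0.62 without mice 5 and 8. Hadha had r = 0.89 (exact permutation p = 0.0026, adjusted p = 0.028) and rho = 0.71 (adjusted p = 0.28), with 0.77 without mice 3 and 5. Acaa1b (r = 0.85, rho = 0.67) and Angptl4 (r = 0.82, rho = 0.69) each passed by r (adjusted p = 0.040, exact permutation) but not by rho (adjusted p = 0.28), and their r was 0.39 and 0.57 without the 2 mice farthest from the median, so both rest on those mice. Pdk4 (r = 0.78, adjusted p = 0.099, exact permutation), Cpt1a (r = 0.36, -0.35 without mice 3 and 6, adjusted p = 0.70, exact permutation) and Fgf21 (r = -0.25, adjusted p = 0.77, exact permutation) did not pass. No relation between the cultured level and either other type passed the threshold among the 16 tested.

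Genes with the most similar levels over the 24 samples were sought by Pearson's r of log2(CPM + 1), as a description in which the sample type carries most of the spread. The closest of those reported were Fhit for Cpt1a (r = 0.992), Gys2, the liver glycogen synthase, for Acaa1b (0.991), Mctp2 for Hadha (0.987), AI182371 for Acsl1 (0.990), Cxadr for Pdk4 (0.914), Soat2 for Fgf21 (0.812) and Fbxo31 for Angptl4 (0.830). Cxadr averaged 159 CPM in Liver, 441 in Cell Suspension and 269 in culture, which is the order of Pdk4.

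The other genes of these pathways were counted in 12 lists that hold none of the members. In PH against L, 19 of 19 mitochondrial β-oxidation genes and 19 of 19 peroxisomal ones were lower, with median log2 fold changes of -1.86 and -3.17 beside 0.10 for all genes. The thiolase Acaa2 went from 314 ± 36.9 CPM in L to 32.6 ± 5.46 in PH (SD, n = 8) and the peroxisomal racemase Amacr from 115 ± 20.8 to 3.07 ± 0.579 CPM. In CS against L, 9 of the 19 mitochondrial genes were lower and 1 higher (median -0.30), among them Hadh (-0.68, adjusted p = 0.0038), and 2 of the 19 peroxisomal genes were lower and 2 higher. In PH against CS, 18 of 19 were lower in each list.

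Ketogenesis had 4 of 6 genes lower and 2 higher in PH against L (median -1.89). Bdh1, which interconverts the ketone bodies, was at 111 ± 34.5 CPM in L, 78.1 ± 23.2 in CS and 2.52 ± 0.904 in PH, a log2 fold change of -5.48 against L (adjusted p = 1.2e-17). Of 18 genes of fatty acid uptake, binding and activation, 13 were lower and 3 higher (median -1.72), and Slc27a2, a transporter with acyl-CoA synthetase activity, went from 1056 ± 221 to 26.9 ± 6.21 CPM. PPARα, its partners and coregulators had 12 of 16 lower and 2 higher (median -1.48). Ppara itself was at 1804 ± 308 CPM in L, 2393 ± 820.3 in CS and 172 ± 66.1 in PH (log2 -3.39 in PH against L, adjusted p = 5.3e-14). Of 22 other PPARα target genes, 16 were lower and 2 higher (median -1.75), among them Mgll, the monoacylglycerol lipase, which was at 427 ± 82.5 CPM in L and 8.09 ± 1.32 in PH.

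The genes around Pdk4, Fgf21 and Angptl4 were mixed. Of 11 genes of the pyruvate dehydrogenase complex, its kinases and phosphatases, 7 were lower and 2 higher in PH against L (median -0.86), and the kinase Pdk2 was lower by -1.49 on the log2 scale (adjusted p = 3.7e-08), opposite to Pdk4. Of 8 FGF21 receptor and liver FGF genes, 5 were lower and 1 higher. Klb, the co-receptor for FGF21, was at 121 ± 47.6 CPM in L, 278 ± 129 in CS and 5.70 ± 1.66 in PH, higher in CS than in L (log2 1.19, adjusted p = 8.7e-04) and lower in PH than in L (-4.41, adjusted p = 7.7e-14). Of 11 angiopoietin-like and lipase genes, 5 were lower and 2 higher (median -0.26), with Angptl8 at -4.09 (adjusted p = 7.6e-10) and the hepatic lipase Lipc at 1.17 (adjusted p = 0.0051).

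**Figure D5:**
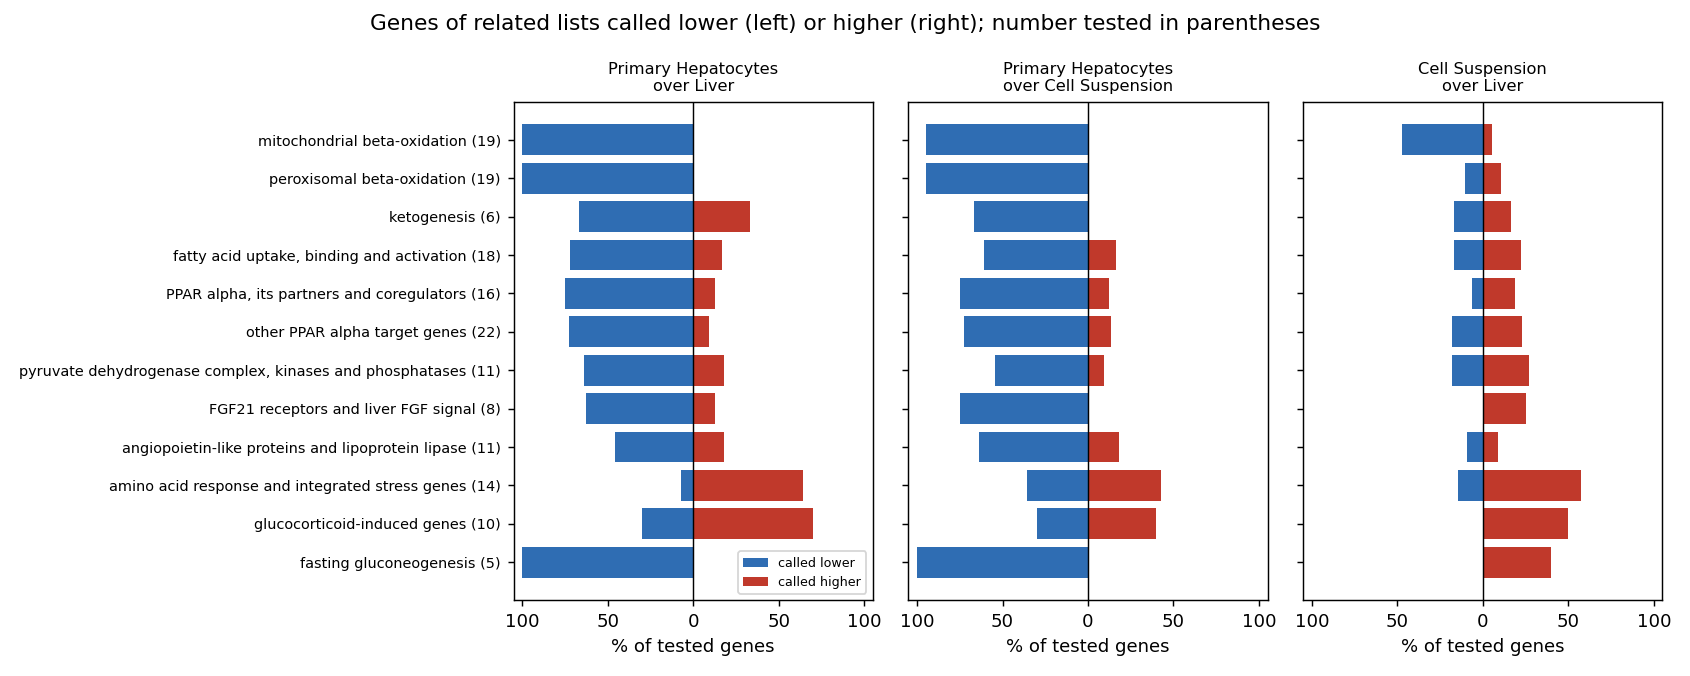
Percent of tested genes called lower (left) and higher (right) in each of the 12 lists, with the number tested in parentheses, in the 3 comparisons. Both β-oxidation lists are lower throughout in Primary Hepatocytes against Liver, at 19 of 19 each, while 9 of 14 amino acid response genes and 7 of 10 genes of the glucocorticoid list, which holds the receptor gene too, are higher.

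Lists of other fasting and stress signals did not share a direction. In PH against L, 9 of 14 amino acid response and integrated stress genes were higher and 1 lower (median 0.93), and in CS against L 8 were higher and 2 lower (median 0.65). From suspension to culture, 6 were higher and 5 lower (median 0.10). Gdf15, a secreted stress factor, was at 15.6 ± 8.84 CPM in L, 223 ± 114 in CS and 48.8 ± 9.99 in PH. Of 10 genes listed for glucocorticoids, which include their receptor Nr3c1 beside induced genes, 7 were higher and 3 lower in PH against L (median 1.18), and 5 were higher and 0 lower in CS against L. From suspension to culture, 4 were higher and 3 lower (median 0.40). The 3 genes lower in PH against L were Tat, Tsc22d3 (-2.10, adjusted p = 5.6e-05) and Nr3c1 itself (-0.65, adjusted p = 7.8e-05), the last named after its value was seen. The metallothionein Mt2 went from 2.40 ± 2.38 CPM in L to 169.9 ± 83.6 in PH, whereas Tat, a tyrosine-degrading enzyme of the same list, went from 1164 ± 627 to 58.8 ± 20.5 CPM. Of 5 genes listed for gluconeogenesis, 5 were lower in PH against L (median -4.45) and 2 were higher in CS against L. Pck1, which commits oxaloacetate to glucose, was at 1360.0 ± 471 CPM in L, 3777 ± 663 in CS and 32.8 ± 9.28 in PH.

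Clusters of cultured hepatocytes differed in Pdk4 and, over a narrower range, in the measured levels of the enzymes. Pdk4 before TMM scaling averaged 15.6 ± 5.50 CPM in the authors' cluster 0, 43.8 ± 17.4 in cluster 1, 58.0 ± 17.4 in cluster 17 and 73.7 ± 42.6 in cluster 14 (SD over 8 samples), with 21.0 ± 5.96 in the low-UMI cluster. Over the 5 clusters Acaa1b averaged 5.24 to 18.2 CPM, Hadha 16.1 to 55.4, Cpt1a 25.7 to 63.3, Ehhadh 6.99 to 17.0 and Acsl1 40.3 to 74.9 CPM. Cpt1a and Hadha were highest in cluster 0 and lowest in cluster 17, where Acaa1b and Ehhadh were highest. The Cpt1a, Acaa1b, Hadha and Acsl1 averages all lay below the levels in the barcodes with few UMIs, and those of Ehhadh overlapped them. Their order over clusters is therefore not read as a difference in expression. Cluster 14, with the most Pdk4, held the summed adipocyte markers at 60.8 CPM, against 8.36 to 15.7 CPM in the other 4 clusters, and cluster 17 held the stellate markers at 529 CPM, against 127 to 367 CPM. The part of other cell types in the Pdk4 values was not tested. Since the clusters were made from the RNA of these same nuclei, these are descriptions without a test.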

How the data were processed

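Counts were deposited by the authors as UMIs per gene and barcode in 6 matrices, with spliced, unspliced and ambiguous UMIs of 32285 genes kept apart; the submitters' processing notes name bcl2fastq 2.19.0, Salmon, alevin and GRCm38. Hashtags, cell types and clusters were taken from the deposited annotation, from which the authors had already removed doublets, by hashtags and scDblFinder; a hashtag labelled CD2 was read as the Cell Suspension of mouse 2. Cultured nuclei were read as endothelial (cluster 12) or stellate (cluster 27) where the summed markers exceeded 5 times the median of the cultured clusters, and otherwise as hepatocytes. UMIs of hepatocyte nuclei were summed per sample, genes under 10 counts over all samples were left out, and the remaining 26778 were tested with edgeR 4.0.16 (quasi-likelihood, TMM, sample type alone, 24 samples, Benjamini-Hochberg over all genes, threshold 0.05; R 4.3.3, limma 3.58.1). Alternatives included DESeq2 1.42.0, other scalings and filters, the pool, the mouse and leaving out each mouse. Shares, zonation and relations between mice were tested by exact permutation (Python 3.11.15, scipy 1.17.1, numpy 2.4.6, pandas 2.3.3; plots with matplotlib 3.10.9). Confidence intervals of fold changes come from the edgeR fit and include the spread between samples, whereas floors of 3 counts cover counting error only.

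Samples of the same number came from the same mouse by the deposited sample names, so the mouse pairs them. Over 8617 genes, deviations from the group mean correlated at 0.34 to 0.85 between Liver and Cell Suspension of the same mouse (median of other pairs -0.08), at -0.05 to 0.13 between Liver and Primary Hepatocytes and at -0.17 to 0.13 between Cell Suspension and Primary Hepatocytes. The blocked values stand beside the results that they change.

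All 8 members are described. From each of the 12 lists (159 genes), the 4 genes with the largest absolute change in culture among those at 10 CPM or more in a sample type could be named, with Acaa1a and the 2 closest genes of each member by Pearson's r of log2(CPM + 1). The members and lists were chosen with earlier results of these data known. Gene positions are from GENCODE vM21. On simulated counts, with the same spread for every gene and few genes changed, the median fitted fold changes were close to those put in. The data differ in both respects, so nothing is concluded from this for genes with a wide spread, such as Pdk4. A few results on single genes are not reported here.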

Additional observations from a re-analysis of the deposited data

Results flagged for a closer look

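In 24 groups of 8 samples (8 genes by 3 sample types), 4 groups held a sample far from the others by Dixon's criterion (critical value 0.526). For independent, normally distributed values, chance gives about 1 group in 20. The criterion was applied to CPM without a logarithm, and the sample types share their mice, so the 4 groups are not read as an excess over chance. Cpt1a in the Liver of mouse 3 was 851 CPM, next to 675 CPM in the nearest sample. Acsl1 of mouse 5 stood apart in both fresh types, at 2892 CPM in Liver (nearest 1547) and 4274 CPM in Cell Suspension (nearest 2052). Fgf21 in the Cell Suspension of mouse 3 was 2.35 CPM (nearest 0.798), which rests on 15 UMIs. Leaving out mouse 3 turned the sign of the Fgf21 difference between CS and L, and leaving out mouse 5 changed no call of Acsl1.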

How the results depend on the processing

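Of 546 alternative log2 fold changes of the 8 genes, 512 kept their direction and side of the threshold, 22 no longer passed, 3 passed newly and 9 turned sign. The decreases of Cpt1a, Ehhadh, Acaa1b, Hadha and Acsl1 in culture passed under all alternatives run. With the pool as a covariate, 0 members were higher in PH against L and 1 (Pdk4) in CS against L; a further limit of 2-fold also left 1. One member, Ehhadh, was lower in CS against L without TMM scaling (1) and with the mouse as a replicate block (1); the block otherwise changed only the call of Pdk4 in PH against CS (-0.47). Sign turned for Angptl4 in PH against L without TMM scaling (0.44), over all nuclei (0.22), without mouse 8 (0.04, others down to -0.26) and in the shared pools (0.04); for Ehhadh (0.38) and Hadha (0.34) in CS against L on spliced UMIs; for Fgf21 in CS against L with the pool (-0.39), without mouse 3 (-0.26, others up to 1.02) and in the shared pools (-0.28); and for the suspension gradient of Fgf21 in outer quartiles (-0.05) and without mice 7 (-0.14) or 8 (-0.17, others up to 0.13). Without thinning, the difference in the share of nuclei turned in CS against L for Acaa1b (-5.30 percentage points), Acsl1 (-4.65), Fgf21 (-0.0646) and Angptl4 (-3.06), and for Angptl4 in PH against L (-1.70) and against CS (1.36). Unthinned shares also depend on depth, and the cause of these turns was not tested. Zonal differences of members past the threshold, adjusted over 24 tests, numbered 17, and 13 to 16 without 1 mouse. Fgf21 could not be fitted under the stricter count filter or on unspliced UMIs, and its 5 cultured UMIs limit the size of its decrease.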
